A study of Mus musculus with 6 samples.

Results

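The genes examined here encode the enzymes and transporters that take up glucose, break it down to pyruvate, turn pyruvate into lactate or pass it to the mitochondrion, and store glucose as glycogen. The list holds 34 genes, taken by name without use of their measured values, though with earlier results of these data known. All probes annotated to them were used. Of the 34 genes, 31 had at least 1 of 55 probes, and 22 had a probe above background on at least 3 of the 6 arrays and entered the test, out of 9483 genes tested and 19057 with a probe. These 22 genes were represented by 35 of their probes. Hk2, Gpi1 and Eno1 had no probe named and are not analysed here.

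Glycolysis splits glucose into pyruvate in the cytosol and yields ATP without oxygen, and many tumour cells run it at a high rate and export the product as lactate. Pyruvate dehydrogenase commits pyruvate to oxidation in mitochondria and is switched off by the pyruvate dehydrogenase kinases. Transcripts of glucose transport, of most glycolytic steps, of lactate dehydrogenase and of a pyruvate dehydrogenase kinase are classic targets of the hypoxia-inducible factors (HIFs).

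The RNA came from MC38 cells, a mouse colon carcinoma line, sorted by flow cytometry out of livers bearing their metastases. All hosts were CD11bDTR transgenic mice, in which the CD11b promoter of myeloid cells drives a diphtheria toxin receptor, and all received MC38 cells in the spleen. The PBS group (3 samples) and the diphtheria toxin (DT) group (3 samples) were given their agent intraperitoneally on days 7 and 9, and livers were taken on day 10. The tumour cells themselves carry no stated transgene, and the ages of the mice and the gate of the sort were not given. Nothing states whether a sample is 1 mouse or a pool, so the spread behind each p-value may be technical.

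Each sample was read on 1 Illumina bead array, with mean probe signals between 311.3 and 503.1 and detection above background for 36.7% to 40.6% of probes. Precision is limited by there being 6 arrays, and an exact permutation test of 3 against 3 cannot give a p below 0.1. PBS replicate 2 stood apart. It had the lowest mean signal of the 6 arrays, at 311.3, and after normalization it held the highest level for 13 of the 22 genes, so the difference of each of the 22 is also given without it. Before normalization it held the highest signal for 1 gene and the lowest for 7. Of the epithelial markers, Krt8 and Lgals4 lay above background on all 6 arrays, and Epcam, Krt18, Krt19, Krt20, Cdx2 and Vil1 on none.

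Most genes of the list were lower after DT, but none passed the test singly. Of the 22 genes, 17 had a lower mean in DT and 5 a higher one (16 and 6 with arrays scaled to equal medians in place of the quantile step), and the median log2 difference (DT minus PBS) was −0.41, against 0.011 over all 9483 genes, of which 4620 were lower. In limma with p-values adjusted (Benjamini-Hochberg) over every gene tested, 0 of the 22 reached an adjusted p of 0.05, beside 1.09% of all genes (103 genes, 72 lower and 31 higher), and the smallest adjusted p was 0.0573, for Pdhb. In bulk RNA, fewer cells of a type and less RNA per cell cannot be told apart.

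At an unadjusted p under 0.05, 11 of the 22 genes were lower and 2 higher, beside 11.9% and 12.0% of all genes. With arrays scaled to equal medians, 1 was lower and 1 higher at that p (145 lower and 438 higher over all genes), and with the deposited normalized values 6 were lower and 3 higher (899 and 1173 over all genes). With equal medians limma gave S100a8 and Sdhd, described below, the same SE of 0.377. The p-values of that setting thus do not measure the spread of each gene. The 3 DT arrays all lay below the 3 PBS arrays for 8 genes and all above them for 3, beside 14.0% and 15.0% of all genes. Of these genes, only Pfkp and Pdha1 also did not overlap before normalization. For Pfkl, Aldoa, Tpi1, Gapdh, Pdhb, Gbe1 and Pgm1, the signal of PBS replicate 2 then lay below that of DT replicate 3 (Pfkl, 1209 against 1288). The list's mean over its 22 genes, relative to the PBS mean, was −0.18, 0.24 and −0.067 on the 3 PBS arrays and −0.36, −0.40 and −0.18 on the 3 DT arrays. DT replicate 3 thus lay beside PBS replicate 1, while DT replicates 1 and 2 lay below every PBS array. DT replicate 2 was the lowest array for 11 genes and DT replicate 1 for 6, and DT replicate 3 was neither highest nor lowest for any.

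**Figure D1:**
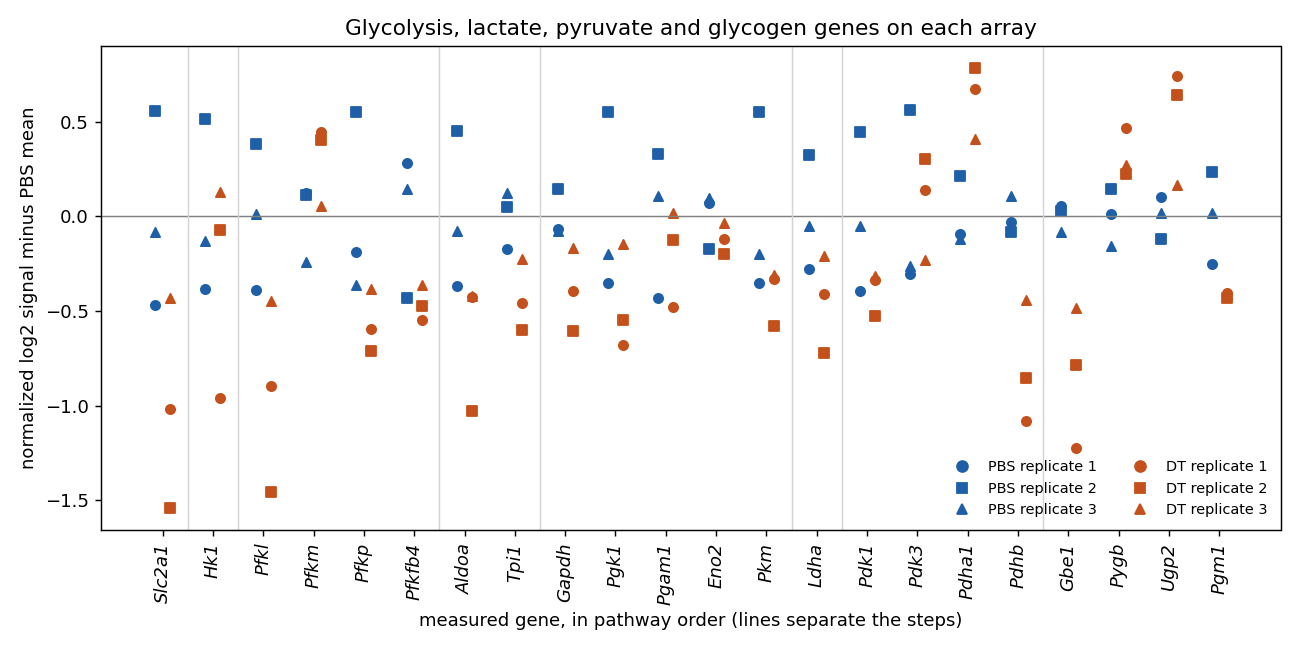
Normalized log2 signal of each of the 22 measured genes on each of the 6 arrays, minus the mean of the 3 PBS arrays (vertical axis), in pathway order (horizontal axis, lines between steps). Blue marks are PBS and orange marks DT arrays, with the shape giving the replicate. PBS replicate 2 is the highest point for 13 genes, and the orange points of Pdha1, Pygb and Ugp2 lie above all blue ones.

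Without PBS replicate 2, 17 of the 22 genes were still lower, and the median difference was −0.24, against 0.002 over all genes. Again 0 genes of the list passed, with a smallest adjusted p of 0.0735, beside 0.0316% of all genes (3 genes). At an unadjusted p under 0.05, 5 genes were then lower and 3 higher, beside 12.9% and 12.0% of all genes. The size of the list's median thus rested in part on 1 PBS array.

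With all 6 arrays, the largest difference of the list was that of Slc2a1, in glucose uptake. Without PBS replicate 2 those of Gbe1, Pdhb, Pfkl and Pdha1 (0.725) were larger in size than that of Slc2a1 (−0.716). With arrays scaled to equal medians that of Pdha1 was larger (0.84 against −0.81). Relative to the median of all genes there it was smaller (0.68 against −0.97). Slc2a1 encodes GLUT1, the main glucose transporter of proliferating cells. Its normalized log2 signal was 10.68, 11.71 and 11.07 on the PBS arrays and 10.14, 9.62 and 10.72 on the DT arrays. DT replicate 3 lay just above PBS replicate 1, and the other DT arrays lay below every PBS array. The difference was −0.997 (SE 0.31, 95% interval −1.68 to −0.31), or 2.00-fold lower in DT (limma, adjusted p = 0.103), and −0.72 without PBS replicate 2 (adjusted p = 0.182). Before normalization the PBS signals of 2172, 2014 and 2448 did not overlap the DT signals of 974.0, 1179 and 1894. Slc2a3, the GLUT3 transporter, lay above background on no array.

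Glucose is then phosphorylated by hexokinase. Hk1, the hexokinase with a probe here, gave −0.30 (SE 0.30, adjusted p = 0.576) and −0.048 without PBS replicate 2. A second Hk1 probe gave 0.15 (SE 0.18), so the gene had no settled direction.

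Phosphofructokinase catalyses the committed step of glycolysis, and its liver-type subunit Pfkl had the largest difference of the glycolytic chain itself, with all 6 arrays and without PBS replicate 2. Pfkl read 10.18, 10.95 and 10.58 in PBS and 9.68, 9.12 and 10.13 in DT. All DT arrays lay below all PBS arrays, with DT replicate 3 close to PBS replicate 1. The difference was −0.93 (SE 0.27, 95% interval −1.53 to −0.34), or 1.91-fold lower (limma, adjusted p = 0.0874), and −0.74 without PBS replicate 2 (adjusted p = 0.156). A dimmer Pfkl probe, above background on 5 arrays, gave −0.018 (SE 0.25).

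The platelet-type subunit Pfkp read 6.22, 6.95 and 6.04 in PBS and 5.81, 5.69 and 6.02 in DT. The groups did not overlap, but the highest DT array and the lowest PBS array nearly met. The difference was −0.56 (SE 0.23, limma, adjusted p = 0.174), and −0.30 without PBS replicate 2. The muscle-type subunit Pfkm had the opposite sign, 0.30 (SE 0.17, adjusted p = 0.319) and 0.36 without PBS replicate 2, with a second probe at 0.46 (SE 0.20).

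Pfkfb4 makes and removes the sugar bisphosphate that activates phosphofructokinase. It read 8.40, 7.69 and 8.26 in PBS and 7.57, 7.64 and 7.75 in DT. Here PBS replicate 2 was the low PBS array and lay among the DT arrays. The difference was −0.46 (SE 0.20, limma, adjusted p = 0.191) and grew to −0.68 without that array (adjusted p = 0.0735), the smallest adjusted p of the list in that setting. Its paralogue Pfkfb3 lay above background on no array. Over the 4 measured genes of this step, 3 were lower and the median was −0.51.

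The promoters shown here and below are those of the genes of the list with the smallest unadjusted p in limma. These are Pdhb, Gbe1, Pdha1, Pfkl, Slc2a1 and Ugp2. HIFs bind the core letters ACGTG or GCGTG. Each sequence runs from 250 bases before to 50 bases after the transcript's start, 5′ to 3′ in the direction of the gene, from RefSeq on GRCm38.p6. The Slc2a1 window is chr4:119108495-119108794, plus strand, and the Pfkl window is chr10:78009758-78010057, minus strand. Capitals mark ACGTG or GCGTG on either strand, where CACGTG counts once on each strand.
Slc2a1: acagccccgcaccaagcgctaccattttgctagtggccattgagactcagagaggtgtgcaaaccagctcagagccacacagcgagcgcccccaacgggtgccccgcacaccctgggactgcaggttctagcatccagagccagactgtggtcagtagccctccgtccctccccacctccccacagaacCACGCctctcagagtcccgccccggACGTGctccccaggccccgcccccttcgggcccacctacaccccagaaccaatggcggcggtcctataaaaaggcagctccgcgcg
Pfkl: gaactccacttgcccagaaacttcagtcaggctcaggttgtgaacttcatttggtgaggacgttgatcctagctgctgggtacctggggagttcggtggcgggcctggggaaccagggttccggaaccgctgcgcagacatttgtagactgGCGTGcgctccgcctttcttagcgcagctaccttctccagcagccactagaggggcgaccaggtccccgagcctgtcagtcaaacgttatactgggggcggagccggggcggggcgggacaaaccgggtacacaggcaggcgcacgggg
The Slc2a1 window held 2 matches and the Pfkl window 1. Of the first-listed windows of the 22 measured genes, 72.7% (16) held a match, as did 72.7% (8 of 11) of those lower at an unadjusted p under 0.05. The share was 64.0% over the 7723 tested genes with a window and 43.8% over all 32851 windows. Taken singly, ACGTG stood in 11 of the 22 windows of measured genes and 26.4% of those of tested genes, and GCGTG in 13 and 52.2%, shares that were not tested. A match describes these letters only, and binding was not measured.

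Both enzymes that split the sugar and interconvert the products were lower. Aldoa, the aldolase that cleaves fructose bisphosphate, read 11.05, 11.87 and 11.34 in PBS and 10.99, 10.39 and 11.00 in DT. PBS replicate 1 lay just above DT replicates 1 and 3, and DT replicate 2 far below. The difference was −0.63 (SE 0.24, limma, adjusted p = 0.156), and −0.40 without PBS replicate 2 (adjusted p = 0.288).

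Tpi1, triose phosphate isomerase, read 12.97, 13.19 and 13.27 in PBS and 12.68, 12.55 and 12.92 in DT. The groups did not overlap, and PBS replicate 3, not replicate 2, was the highest array. The difference of −0.43 (SE 0.16, limma, adjusted p = 0.154) moved little without PBS replicate 2, to −0.40. A second bright Tpi1 probe gave −0.50 (SE 0.18), and a dim one gave 0.006 (SE 0.17). Aldoc, the brain-type aldolase, lay above background on at most 1 array with each of its probes.

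The 5 measured genes of lower glycolysis were all lower, with a median of −0.39 (Eno2 at 0.054 with equal medians, still below the median of all genes there), but only Gapdh had an unadjusted p under 0.05. Gapdh, which oxidises glyceraldehyde phosphate and is often used as a reference gene, read 13.60, 13.81 and 13.59 in PBS and 13.27, 13.06 and 13.50 in DT. The groups did not overlap, and DT replicate 3 lay close to the PBS arrays. The difference was −0.39 (SE 0.16, limma, adjusted p = 0.188), and −0.31 without PBS replicate 2.

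The ATP-forming Pgk1 gave −0.46 (SE 0.24) and Pkm, the pyruvate kinase that makes ATP and pyruvate, gave −0.41 (SE 0.23). Both were highest on PBS replicate 2, and without it their differences were −0.18 and −0.13. Second probes gave −0.41 for Pgk1 (SE 0.19) and −0.63 for Pkm (SE 0.27). The mutase Pgam1 gave −0.20 (SE 0.22), with a second probe of the opposite sign at 0.32 (SE 0.32). Eno2, the neuronal enolase, gave −0.12 (SE 0.15). Without PBS replicate 2, Pgam1 gave −0.033 and Eno2 −0.20. These 4 genes had adjusted p-values between 0.280 and 0.667 in limma.

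Ldha, the lactate dehydrogenase subunit that favours lactate formation, read 12.32, 12.92 and 12.55 in PBS and 12.18, 11.88 and 12.38 in DT. The groups overlapped, with DT replicate 3 above PBS replicate 1. The difference was −0.45 (SE 0.20, limma, adjusted p = 0.206), and −0.28 without PBS replicate 2. Ldhb, the other subunit, and the lactate carriers Slc16a1 and Slc16a3 lay above background on at most 2 arrays with any probe, so lactate export could not be compared.

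**Figure D2:**
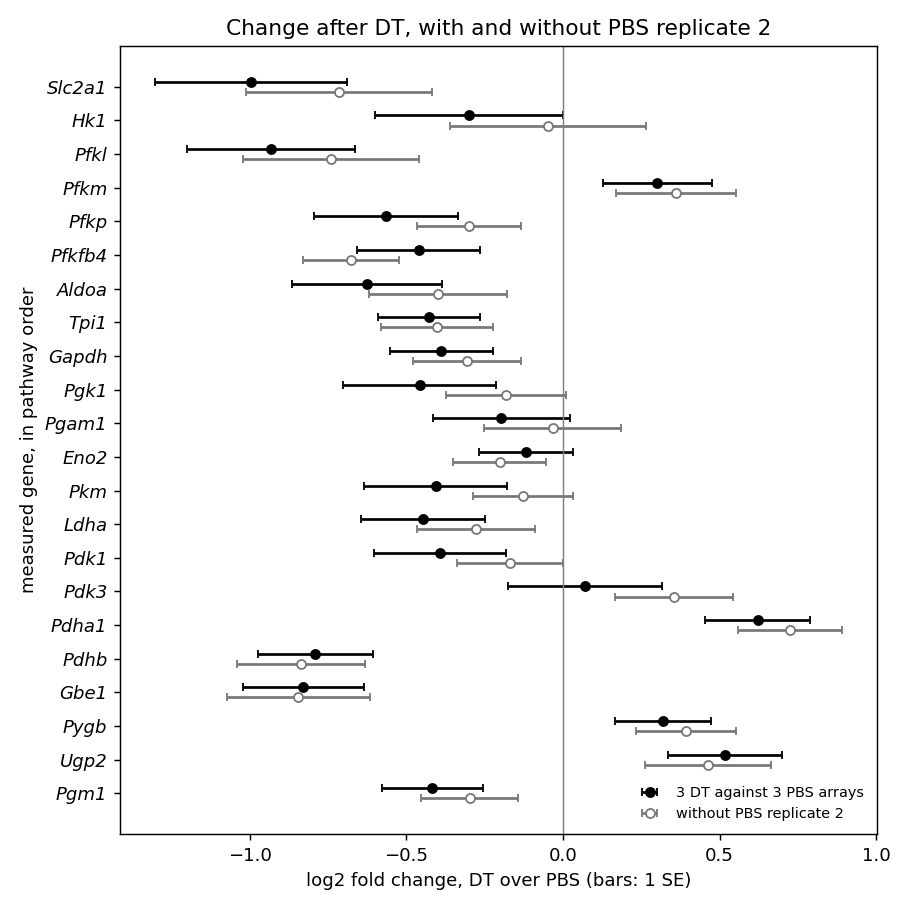
Log2 difference, DT over PBS (horizontal axis), for the 22 measured genes in pathway order, with bars of 1 SE from limma. Filled points use all 6 arrays and open points leave out PBS replicate 2; most glycolytic genes move toward 0 without it, while Pdhb (−0.79 and −0.84), Gbe1 (−0.83 and −0.84) and Pdha1 (0.62 and 0.72) do not.

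The genes of the pyruvate dehydrogenase complex did not share a direction. Pdha1, the alpha subunit of pyruvate dehydrogenase itself, read 9.72, 10.03 and 9.70 in PBS and 10.49, 10.60 and 10.22 in DT. All DT arrays lay above all PBS arrays. It was 0.62 higher (SE 0.17, 95% interval 0.25 to 0.99), or 1.54-fold (limma, adjusted p = 0.0774), and 0.72 higher without PBS replicate 2 (adjusted p = 0.0752). Before normalization, PBS replicates gave signals of 1184, 670.0 and 998.1, and DT replicates 1204, 2201 and 1370.

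Pdhb, its beta subunit, had 3 measured probes that disagreed. The brightest, annotated to the cDNA clone AK084507, read 9.46, 9.40 and 9.59 in PBS and 8.40, 8.63 and 9.04 in DT, with no overlap. The difference there was −0.79 (SE 0.18, 95% interval −1.20 to −0.38), or 1.73-fold lower (limma, adjusted p = 0.0573), and −0.84 without PBS replicate 2 (adjusted p = 0.0824). The probes annotated to the RefSeq transcript NM_024221 were higher in DT. One read 7.69, 7.16 and 7.36 in PBS and 7.93, 8.35 and 7.97 in DT, also with no overlap, a difference of 0.68 (SE 0.19, adjusted p = 0.085 in limma over every probe). The other gave 0.21 (SE 0.17). The direction of Pdhb thus depended on the probe, and which transcript each probe reads was not tested.

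**Figure D3:**
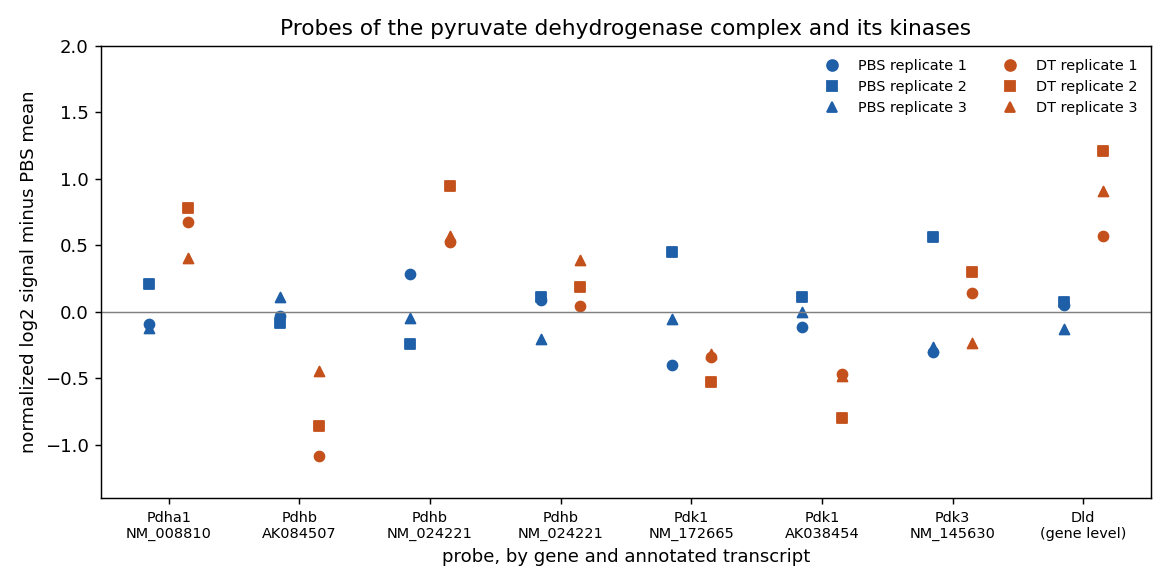
Normalized log2 signal minus the mean of the 3 PBS arrays (vertical axis) for each measured probe of Pdha1, Pdhb, Pdk1 and Pdk3 and for Dld at the gene level (horizontal axis), with PBS arrays in blue and DT arrays in orange. The first Pdhb probe lies lower in all 3 DT arrays and the middle one higher, as do Pdha1 and Dld.

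Pdk1, a kinase that inactivates the complex, gave −0.39 (SE 0.21, adjusted p = 0.282) and −0.17 without PBS replicate 2. Its second probe, annotated to AK038454, read 6.54, 6.76 and 6.65 in PBS and 6.18, 5.85 and 6.17 in DT, a difference of −0.58 with no overlap (SE 0.17, adjusted p = 0.087 in limma over every probe). Pdk3, another such kinase, gave 0.071 (SE 0.24), and 0.35 without PBS replicate 2. Over every probe of the list that passed the filter, 24 of 35 were lower, beside 8537 of all 17759 probes, and the median was −0.39. In limma 0 passed the threshold, beside 1.35% of all probes, and at an unadjusted p under 0.05, 14 were lower and 4 higher, beside 11.4% and 11.7%. Of 11 genes with several such probes, 7 had the same sign in all, the exceptions being Hk1, Tpi1, Pgam1 and Pdhb.

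The promoters of the subunits Pdha1 and Pdhb are shown by the same rule. The windows, from RefSeq on GRCm38.p6, are chrX:160138381-160138680, minus strand, for Pdha1 and chr14:8172943-8173242, minus strand, for Pdhb, with ACGTG or GCGTG on either strand in capitals.
Pdha1: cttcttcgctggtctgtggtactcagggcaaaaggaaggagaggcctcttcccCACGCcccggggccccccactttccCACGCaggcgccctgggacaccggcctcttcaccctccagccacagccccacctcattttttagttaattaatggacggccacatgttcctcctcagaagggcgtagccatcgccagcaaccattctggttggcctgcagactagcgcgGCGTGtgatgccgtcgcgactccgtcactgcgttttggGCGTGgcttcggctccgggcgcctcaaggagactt
Pdhb: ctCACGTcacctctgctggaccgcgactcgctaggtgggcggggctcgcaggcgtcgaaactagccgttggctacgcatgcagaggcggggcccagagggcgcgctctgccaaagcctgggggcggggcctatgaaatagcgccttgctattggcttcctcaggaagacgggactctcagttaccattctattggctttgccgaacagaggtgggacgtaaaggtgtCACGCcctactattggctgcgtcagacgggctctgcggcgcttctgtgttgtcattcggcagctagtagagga
The Pdha1 window held 4 matches and the Pdhb window 2.

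Glycogen genes also went both ways, with 2 of the 4 measured lower, 2 higher and a median of −0.049. Gbe1, the branching enzyme of glycogen synthesis, read 6.44, 6.42 and 6.30 in PBS and 5.17, 5.61 and 5.90 in DT. The PBS arrays lay close together and every DT array below them. The difference was −0.83 (SE 0.19, 95% interval −1.26 to −0.40), or 1.78-fold lower (limma, adjusted p = 0.0576), and −0.84 without PBS replicate 2 (adjusted p = 0.0899). The gene was dim, with signals before background subtraction of 232.7, 167.3 and 210.1 in PBS and 146.6, 175.8 and 181.0 in DT, and its other probe lay above background on no array.

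Ugp2 makes UDP-glucose, the building block of glycogen. It read 6.76, 6.54 and 6.67 in PBS and 7.40, 7.30 and 6.83 in DT. DT replicate 3 lay just above PBS replicate 1 and the other DT arrays well above. It was 0.52 higher (SE 0.18, limma, adjusted p = 0.131), and 0.46 higher without PBS replicate 2.

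Pgm1, the phosphoglucomutase that links glycogen to glycolysis, read 11.28, 11.76 and 11.54 in PBS and 11.12, 11.09 and 11.12 in DT. The DT arrays were nearly equal and lay below every PBS array. The difference was −0.42 (SE 0.16, limma, adjusted p = 0.161), its second probe gave −0.45 (SE 0.20), and without PBS replicate 2 the gene gave −0.30. Pygb, the brain-type glycogen phosphorylase, gave 0.32 (SE 0.15, adjusted p = 0.237) and 0.39 without PBS replicate 2, with all DT arrays above all PBS arrays. Glycogen synthase Gys1, the liver phosphorylase Pygl and the paralogue Pgm2 lay above background on at most 2 arrays with any probe.

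The promoters of Gbe1 and Ugp2, which had opposite signs, are also shown by that rule of the smallest p-values. The windows, from RefSeq on GRCm38.p6, are chr16:70313699-70313998, plus strand, for Gbe1 and chr11:21371218-21371517, minus strand, for Ugp2, with the same letters in capitals.
Gbe1: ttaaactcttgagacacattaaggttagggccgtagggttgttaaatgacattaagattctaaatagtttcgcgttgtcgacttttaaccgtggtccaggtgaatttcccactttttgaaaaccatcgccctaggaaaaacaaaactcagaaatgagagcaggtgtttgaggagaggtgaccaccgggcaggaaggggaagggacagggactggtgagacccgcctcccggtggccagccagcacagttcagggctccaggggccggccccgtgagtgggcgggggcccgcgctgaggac
Ugp2: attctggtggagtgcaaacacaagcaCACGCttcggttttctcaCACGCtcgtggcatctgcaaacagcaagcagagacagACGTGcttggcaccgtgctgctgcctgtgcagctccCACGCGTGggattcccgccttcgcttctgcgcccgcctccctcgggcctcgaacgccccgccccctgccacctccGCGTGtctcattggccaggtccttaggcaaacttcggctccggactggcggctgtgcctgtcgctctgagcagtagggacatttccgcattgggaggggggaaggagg
The Gbe1 window held 0 matches, which says only that the letters are not in these bases, and the Ugp2 window held 6.

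Other lists around glucose metabolism were measured beside these genes, and 1 gene of them passed the test, beside 1.09% of all genes. HIF pathway genes and HIF targets outside glycolysis were lower in 16 of 23 (15 with equal medians), with a median of −0.31, or −0.072 without PBS replicate 2, and 0 passed in limma. At an unadjusted p under 0.05, 5 of the 23 were lower and 2 higher, beside 11.9% and 12.0% of all genes. Ankrd37, a HIF-induced ankyrin repeat gene, read 8.28, 9.72 and 8.79 in PBS and 7.14, 7.11 and 7.81 in DT, with no overlap and a difference of −1.58 (SE 0.33, limma, adjusted p = 0.0509). P4ha2, a collagen prolyl hydroxylase, gave −0.995 (SE 0.27, adjusted p = 0.0776). Averaged over the HIF list, relative to the PBS mean, PBS arrays lay at −0.24, 0.36 and −0.12 and DT arrays at −0.32, −0.37 and −0.17, with PBS replicate 2 again highest.

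Among 10 other glycolysis and pyruvate genes, 5 were lower and 5 higher, and 0 passed in limma, with 4 lower and 2 higher at an unadjusted p under 0.05, beside the same shares of all genes. Dld, the dihydrolipoamide dehydrogenase that pyruvate dehydrogenase shares with other complexes, gave 0.90 (SE 0.18, adjusted p = 0.0509). The hexose transporter Slc2a6 gave −0.95 (SE 0.20, adjusted p = 0.0509), and lay above background on 1 of 3 DT arrays. Among 7 other glycogen genes, the phosphorylase kinase subunits Phkb and Phkg2 gave 0.68 and −0.51 (adjusted p-values of 0.0573 and 0.108).

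Of the 13 measured genes of the tricarboxylic acid cycle, 10 were higher, with a median of 0.12. With equal medians 12 were higher, and 11 lay above the median of all genes there. Leaving out 1 array at a time, between 8 and 10 were higher. With all 6 arrays 1 gene passed, beside 1.09% of all genes. At an unadjusted p under 0.05, 1 was lower and 2 higher in limma, beside 11.9% and 12.0% of all genes. Sdhd, a subunit of succinate dehydrogenase, read 8.50, 8.51 and 8.48 in PBS and 9.11, 9.46 and 9.25 in DT. On that scale it rose by 0.78 (SE 0.15, limma, adjusted p = 0.0462). The call was lost without DT replicate 1 or 2 or any of the 3 PBS replicates (adjusted p between 0.0696 and 0.215), and with arrays scaled to equal medians (0.582), with the replicate number as a block (0.0883), with no filter on dim probes (0.113) and in an unmoderated linear model (0.223). The difference lay between 0.68 and 0.86 over the arrays left out in turn. With equal medians the SE of Sdhd was 0.377, the same as that of S100a8, so that p-value does not measure the spread of Sdhd. Idh3g, a subunit of isocitrate dehydrogenase, gave −0.40 (adjusted p = 0.149). In the pentose phosphate pathway 3 of 6 genes were lower, with transketolase Tkt at −0.61 (SE 0.14, adjusted p = 0.0576) and Rpe, an epimerase of that pathway, at 0.41 (adjusted p = 0.177).

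The regulators of glycolytic genes other than HIF had a median of 0.24 over 9 genes, with Myc, above background on 1 of 3 PBS arrays, at 0.48 (adjusted p = 0.149) and Txnip, which restrains glucose uptake, at 0.41 (adjusted p = 0.323). Of 2 measured gluconeogenesis genes, G6pc3 gave 0.54 and Slc37a4 −0.23 (adjusted p-values of 0.211 and 0.608).

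Markers often used for host cell types were read as well. Of the list means of macrophage, neutrophil, hepatocyte and fibroblast markers, only the neutrophil mean did not overlap between the groups. Whether MC38 cells themselves express these genes was not tested. The mean of 16 measured macrophage and monocyte markers, of 23 listed, lay between 6.91 and 7.98 in PBS and between 6.78 and 6.95 in DT, with 15 of 16 lower, a median of −0.82 and 0 past the threshold in limma (11 lower and 0 higher at an unadjusted p under 0.05, beside 11.9% and 12.0% of all genes). Clec4f, Timd4, Itgam and Ccr2 of that list lay above background on no array. PBS replicate 3 lay with the DT arrays in these markers, at −0.70 relative to the PBS mean, while PBS replicates 1 and 2 lay at 0.32 and 0.38. On the glycolytic list PBS replicate 3 lay between the other PBS arrays, at −0.067.

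The mean of 8 measured neutrophil markers, of 14 listed, lay between 6.03 and 6.54 in PBS and between 6.92 and 7.55 in DT, with 5 higher and 3 lower. S100a8, which neutrophils make in quantity, rose by 2.18 (SE 0.35, limma, adjusted p = 0.0417), a call lost without PBS replicate 2, DT replicate 1 or DT replicate 2 (adjusted p between 0.0640 and 0.191), with no filter on dim probes (0.113) and in an unmoderated linear model (0.226). Lcn2 and Retnlg, also past the threshold, and Ltf lay above background on all 3 DT arrays and on no PBS array. They thus passed the filter only through DT, and their calls are not read as tests. The list's mean and its count of higher markers hold these genes and are not read as tests either. The 3 lower markers were Csf3r, the receptor of a neutrophil growth factor, at −0.50 with no overlap (adjusted p = 0.113), Mmp9 at −0.25 and Elane at −0.21. Cxcr2 and Mmp8 lay above background on no array.

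Of 12 hepatocyte markers, 8 lay above background on no array, Alb and Apoa1 among them, and the mean of the 4 measured lay between 5.91 and 6.74 in PBS and between 6.15 and 6.46 in DT. Of 8 measured stellate cell and fibroblast markers, of 12 listed, 6 were higher and 2 lower, with a median of 0.21 and list means between 9.40 and 9.94 in PBS and between 9.88 and 10.00 in DT. Col3a1, a fibrillar collagen, and Pdgfra, a growth factor receptor of fibroblasts, gave 0.56 and 0.50 with no overlap (limma, adjusted p-values of 0.120 and 0.120). No overlap, with DT higher, held for 3 of the 8, beside 15.0% of all genes. The 2 lower were the collagen genes Col1a1 and Col1a2, at −0.14 and −0.15. Des, Reln, Lrat and Postn lay above background on no array. Among sparser lists, with 2 genes measured of each, the endothelial Flt1 gave −0.55 with no overlap (limma, adjusted p = 0.0835) and Clec4g 0.035. Cdh5, Tek, Lyve1, Vwf and Emcn lay above background on no array. The lymphocyte granule gene Nkg7 gave −0.67 with overlapping groups (limma, adjusted p = 0.130), and Cd3e of that list −0.086. The erythroid Hba-a1 gave −0.69 (adjusted p = 0.245). Markers named here that did not pass the threshold were chosen after their values were seen. The part of these cells in the glycolytic values was not tested.

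**Figure D4:**
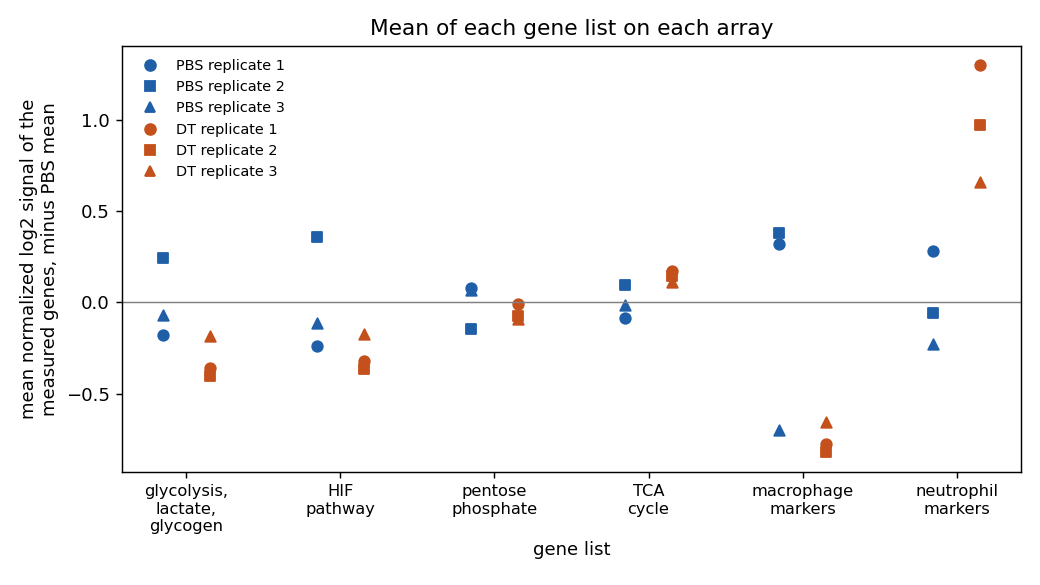
Mean normalized log2 signal of the measured genes of 6 lists on each array, minus the mean of the 3 PBS arrays (vertical axis). The glycolytic and HIF lists are highest on PBS replicate 2 (0.24 and 0.36). The macrophage markers are low on PBS replicate 3 as on the 3 DT arrays. The neutrophil markers are higher on all 3 DT arrays, but Lcn2, Retnlg and Ltf among them passed the filter only through DT.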

How the data were processed

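Illumina bead arrays of 1 colour measured RNA of 3 PBS and 3 DT samples. The deposited files hold, per the file headers, a signal intensity and a detection p-value for each probe and array, with no normalization between arrays. A normalized log2 value per probe, also deposited by the authors without its making being given in the sources used here, served as an alternative. Every column matched 1 labelled sample.

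Gene names followed the annotation of the platform. Symbols were updated by Entrez identifier (34807 probes) or kept (78), and of 45281 probes 34885 had 1 gene, 18 several and 10378 none. The neqc function of limma 3.58.1 (R 4.3.3) subtracted background by normexp on the detection p-values, added an offset of 16, made the arrays' distributions equal by quantiles and took log2. The offset shrinks differences of dim genes, and the quantile step hides any shift common to all genes. A probe was kept if its detection p lay under 0.05 on 3 or more of the 6 arrays, and the probe with the highest mean stood for its gene. The groups were compared by limma's lmFit and eBayes, two-sided, with Benjamini-Hochberg adjustment over 9483 genes and a threshold of 0.05. Every probe was also fitted, over 17759 probes. The procedure was tested on simulated data of 12766 genes. It recovered 4 of 82 changes of 0.5 log2, 45 of 59 of 1 log2 and 59 of 59 of 2 log2. Of its 110 calls, 2 were false. Changes near 0.5 log2 were thus mostly missed in the simulation. It gave every gene the same spread between arrays, while the spread differed between genes in the data. Its shares recovered and its false calls therefore need not hold for the data.

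All 34 genes are named, with values in every sample where the unadjusted p was under 0.05. Of each other metabolic or regulatory list, the text names genes past the threshold and the 2 with the smallest p. Marker lists have those past the threshold named, and others chosen after their values were seen. The genes and lists were chosen with earlier results of these data known. Alternatives covered background, normalization, filter, probe choice, variance model, a replicate block and leaving out each array. Promoter windows were matched by symbol for 33 of 34 genes. No genome was used. Figures were drawn with matplotlib 3.10.9.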

Additional observations from a re-analysis of the deposited data

How the results depend on the processing

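The 17 to 5 split of lower against higher genes was 16 to 6 when arrays were scaled to equal medians without the quantile step, which put the median of all genes at 0.17. The list's median of −0.41 was then −0.20, or −0.37 relative to all genes, with 17 of 22 genes below that level. Leaving out 1 array at a time, it lay between −0.53 (without PBS replicate 1) and −0.24 (without PBS replicate 2). The count of 0 genes of the list past the threshold became 2 without background subtraction, with the deposited values, with a detection p under 0.01 and with detection on all 6 arrays, 4 at an adjusted p under 0.1, 5 with an offset of 50 and with an intensity trend, and 6 with array weights. It lay between 0 and 3 over the arrays left out in turn, the 3 (Pfkl, Pdhb and Gbe1) without DT replicate 3. The count over all genes, 103, became 558 without background subtraction, 654 with an offset of 50, 27 with median scaling (20 higher, 7 lower), 313 with the deposited values, 264 and 382 with the stricter filters, 772 with an intensity trend, 1059 with array weights, 755 at an adjusted p under 0.1, and 0 in limma with no filter (1456 lower and 1486 higher at an unadjusted p under 0.05) and in an unmoderated linear model (860 lower and 921 higher). It lay between 0 (without DT replicate 2, with 671 lower and 634 higher at an unadjusted p under 0.05) and 411 (without DT replicate 3), and leaving out PBS replicate 1, 2 or 3 gave 63, 3 or 71 and leaving out DT replicate 1 gave 4. Same-numbered samples did not deviate together (correlations of −0.10, −0.18 and 0.030), and the replicate number as a replicate block gave 30 genes in all and 0 of the list, with a smallest adjusted p of 0.0883. Signs turned for Eno2 (0.054 with median scaling), for Pgam1 and Pdhb with the mean of all probes (0.060 and 0.032), for Hk1 over the arrays left out (−0.51 to 0.031) and for Pdk3 (−0.083 to 0.35). Over the alternatives, 361 values of single genes kept their direction and their side of the threshold and 27 passed it, for Slc2a1, Pfkl, Pfkfb4, Pdha1, Pdhb and Gbe1. The cause of these differences was not tested. With median scaling limma gave Sdhd and S100a8 the same SE of 0.377, so counts in that setting do not rest on the spread of each gene.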
